A study of Mus musculus with 87 samples.

Results

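Metallothionein, zinc and iron handling genes were followed in mouse liver after partial hepatectomy (PH), an operation that removes most of the liver mass, and after sham surgery, a laparotomy without resection. The genes were taken by name: the metallothioneins Mt1 and Mt2, the metal transporters Slc39a14 and Slc30a10, the hepcidin genes Hamp and Hamp2, transferrin (Trf), its receptor Tfrc, the ferritin heavy chain Fth1 and the iron exporter ferroportin (Slc40a1). They are 10 of the 37991 genes in the deposited table. They, and the list of further metal genes used below, were chosen with earlier results of these data known. The shares of them called, set beside all genes, are therefore a description and not a test. All 10 were among the 15396 genes that passed a filter on low values, a log2 RPKM above -1.5 in at least 1 library, where RPKM is reads per kilobase of gene, scaled to the number of mapped reads.

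The livers came from male C57BL/6 mice aged 12 to 14 weeks at surgery, so that those taken weeks later were older, entrained to 12 h of light and 12 h of dark with food only in the dark, and no group carried a transgene or a deletion. Surgery was done at Zeitgeber time (ZT) 2, that is 2 h after lights on, and poly(A) RNA of individual livers was sequenced. Unoperated livers were taken at ZT2 (C0, n = 9), at ZT6 (C4, n = 3) and as companions of the 4-week animals (C4W, n = 2). Sham livers were taken at 1 h (S1, n = 6), 4 h (S4, n = 5), 10 h (S10, n = 3), 20 h (S20, n = 3) and 48 h (S48, n = 3). PH livers were taken at 1 h (X1, n = 6), 4 h (X4, n = 3), 10 h (X10, n = 6), 20 h (X20, n = 6), 28 h (X28, n = 3), 36 h (X36, n = 6), 44 h (X44, n = 3), 48 h (X48, n = 5) and 72 h (X72, n = 3), and at 1 week (X1W, n = 3) and 4 weeks (X4W, n = 2). Each library is a separate animal. The PH group X60, X4 replicates 1 to 3 and X4W replicate 3 were not analysed here. Because unoperated livers were taken at known hours only at ZT2 and ZT6, the comparisons of S10, S20, X10, X20, X36 and X44 with C0 set different hours of the day against each other, as do those of S1 and X1 by 1 h, and in them the effect of surgery and that of the hour cannot be told apart. The hour of X1W, X4W and C4W is not given in the labels. By the study's own account the livers were collected in 3 separate periods. C0 was taken in each of them, C4 only in the third, S1, S4, X1, X4, X10, X20 and X36 in the first and second, S10, S20, C4W and X4W only in the second, and S48, X28, X44, X48, X72 and X1W only in the first. Every difference of an operated group to C4 crosses periods. In it the period cannot be told apart from the surgery or the hour. C4 against C0 sets the third period against all 3, so that the hour and the period cannot be told apart there either. X10 against S10 and X20 against S20 set PH livers of the first and second periods against sham livers of the second only. In them the period and the surgery cannot be fully told apart. The X4 livers analysed are only replicates 4 to 6, whose period the labels do not give. X48 against S48 and X4W against C4W lie within 1 period.

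Metallothioneins are small cysteine-rich proteins that bind zinc and copper, and their transcription is driven by zinc, glucocorticoids and cytokines through the zinc-sensing factor MTF-1 and other factors. Slc39a14 (ZIP14) carries zinc, manganese and non-transferrin iron into hepatocytes, and Slc30a10 carries manganese out. Hepcidin is a peptide hormone made by hepatocytes under the control of BMP/SMAD and IL-6/STAT3 signals. It binds ferroportin and causes its degradation, which lowers the release of iron into plasma. Transferrin carries iron in plasma, Tfrc takes it up into cells, and ferritin stores it.

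The depth lay between 12.2 M and 49.0 M reads per library (median 26.8 M). The 6 hepatocyte markers were detected in every library, with a summed level of 24614 to 57954 RPKM, and the pancreas markers stayed at or below 0.315 RPKM in sum. C0 replicate 8 stood apart in other cell types: its macrophage and Kupffer cell markers summed to 148 RPKM, against 85.3 in the next highest library, and its neutrophil markers to 45.9 RPKM. Without it, 3 calls against C0 were lost (Tfrc in S1, Trf in S10 and X10) and 4 were gained (Trf in X36, X48 and X72, Hamp2 in C4). The C0 livers were also unlike one another when taken 3 at a time by replicate number, and the labels do not say which numbers belong to which period. In the test used throughout (limma on log2(RPKM + 0.25), called at a Benjamini-Hochberg adjusted p below 0.05 and an absolute log2 fold change above 0.5), 3 of the 10 genes were called between C0 replicates 4 to 6 and 1 to 3, where 4.51% of all genes tested were called. Mt1 averaged a log2 RPKM of 2.28 in replicates 1 to 3, 5.69 in replicates 4 to 6 and 2.89 in replicates 7 to 9. Between replicates 7 to 9 and 1 to 3, 2 of the 10 were called (16.1% of all genes), Hamp by 1.44 and Tfrc by -1.02 on the log2 scale, and between replicates 7 to 9 and 4 to 6, 5 of the 10 were called (16.4% of all genes). The called genes of the last comparison were Mt1, Mt2, Slc39a14, Tfrc and Trf.

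Many of the 10 genes differed between operated livers of 1 to 72 h and unoperated livers, and few of them differed between PH and sham surgery at the same hour. Between PH and sham, 0 of the 10 were called at 1 h (0.65% of all genes tested), 1 at 4 h (8.64%), 1 at 10 h (7.02%), 2 at 20 h (7.11%) and 2 at 48 h (27.2%). At 1 h, 2 of the 10 had an unadjusted limma p below 0.05, Slc39a14 and Slc30a10. At 4, 10 and 48 h the share of the 10 genes that was called was close to the share over all genes or below it. In bulk liver, fewer cells of a type and less RNA per cell cannot be told apart.

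Against unoperated livers, sham surgery gave 4 calls at 1 h (7.77% of all genes), 8 at 4 h (43.3%), 6 at 10 h (29.1%), 4 at 20 h (12.1%) and 5 at 48 h (8.88%). PH gave 5 at 1 h (13.5%), 8 at 4 h (45.6%), 10 at 10 h (36.4%), 5 at 20 h (24.1%), 6 at 28 h (32.7%), 8 at 36 h (35% of all genes), 6 at 44 h (39.2%), 5 at 48 h (38.1%), 6 at 72 h (33.2%) and 2 at 1 week (16.9%). At 4 weeks 0 of the 10 were called against C4W (0.065% of all genes), and 0 of them had an unadjusted limma p below 0.05. Between unoperated livers at ZT6 and ZT2, 2 of the 10 were called (7.89%). The PH and the sham groups share their unoperated controls, so that calls against C0 or C4 are not independent of one another. The median log2 difference of the 10 genes was 0.87 in S4 against C4, where that of all genes was -0.22, and -0.13 in X48 against S48, where that of all genes was 0.27. The median over all genes also lay beyond 0.1 in X1 (-0.11), S1 (-0.12), X20 (0.11), X36 (0.16), X44 (0.23), X48 (0.24), X72 (0.21) and X1W (0.12) against C0 and in X4 against C4 (-0.26), and changes are best read relative to these shifts.

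Mt1 and Mt2 lie side by side on chromosome 8, Mt1 (ENSMUSG00000031765) at chr8:96702989-96704225 and Mt2 (ENSMUSG00000031762) at chr8:96696518-96697467, both on the forward strand of mm9. MTF-1 binds metal response elements, whose core was searched as TGCACNC or TGCGCNC on both strands, from 250 bases before to 150 after the annotated start of each of 22380 protein-coding genes. Mt1 had 5 matches and Mt2 had 7, numbers that 0.295% and 0.0313% of all these windows reach, whereas 35.8% of them hold at least 1. Of the other genes, Slc30a10 had 3 matches (3.88% of windows have as many), 2 of them overlapping on opposite strands, Tfrc had 2 (12.2%) and Trf had 1. The sites of Mt1 are shown with 3 flanking bases on each side and the core in capitals, since the metallothioneins changed more than the other 8 genes. They start from 23 bases before to 99 bases after the annotated start, so that 4 of the 5 lie after that start. The start is that of the gene annotation, and where transcription begins in these livers was not examined. Site 4 matches on the reverse strand of the gene and is shown as read on the forward strand.
Mt1 site 1: ctgTGCACACtgg
Mt1 site 2: ctcTGCACTCcgc
Mt1 site 3: aagTGCGCTCggc
Mt1 site 4: gctGGGTGCAaac
Mt1 site 5: cttTGCGCCCgga
The 3 sites of Mt2 that lie before its annotated start, by 223, 128 and 50 bases, follow. The last is on the reverse strand of the gene.
Mt2 site 1: ctcTGCACCCggc
Mt2 site 2: cttTGCGCTCagc
Mt2 site 3: ggcGTGTGCAggc
A match of letters is not a measured binding site.

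Mt1 and Mt2 rose in each sham group, from 1 to 48 h, and in each PH group analysed from 1 to 72 h. In C0, Mt1 had a log2 RPKM of 1.57 at the lowest, 3.13 at the median and 6.21 at the highest, and in C4 it had 3.54, 5.46 and 3.30. At 4 h it had 12.06, 11.72, 11.75, 11.38 and 11.54 after sham surgery and 11.26, 11.22 and 11.41 after PH. No operated liver at 4 h overlapped an unoperated one, and the sham and PH livers were close together.
The difference of S4 to C4 was 7.56 (SE 0.65, adjusted p = 4.7e-15 by limma), a 189-fold higher level on the RPKM + 0.25 scale. That of X4 to C4 was 7.17 (SE 0.73, adjusted p = 1.1e-12), a 144-fold higher level. In the order of levels per length over the 15396 genes, Mt1 stood at 2560 in C0 and at 43 in S4. Mt2 followed the same course from a lower resting level, with 3.09, 4.32 and 1.68 in C4, 12.28, 11.84, 11.85, 11.76 and 11.77 in S4, and 11.75, 11.66 and 11.74 in X4. Its difference was 8.82 (SE 0.77, adjusted p = 6.9e-15) in S4 and 8.63 (SE 0.86, adjusted p = 5.4e-13) in X4, 451-fold and 396-fold.

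**Figure D1:**
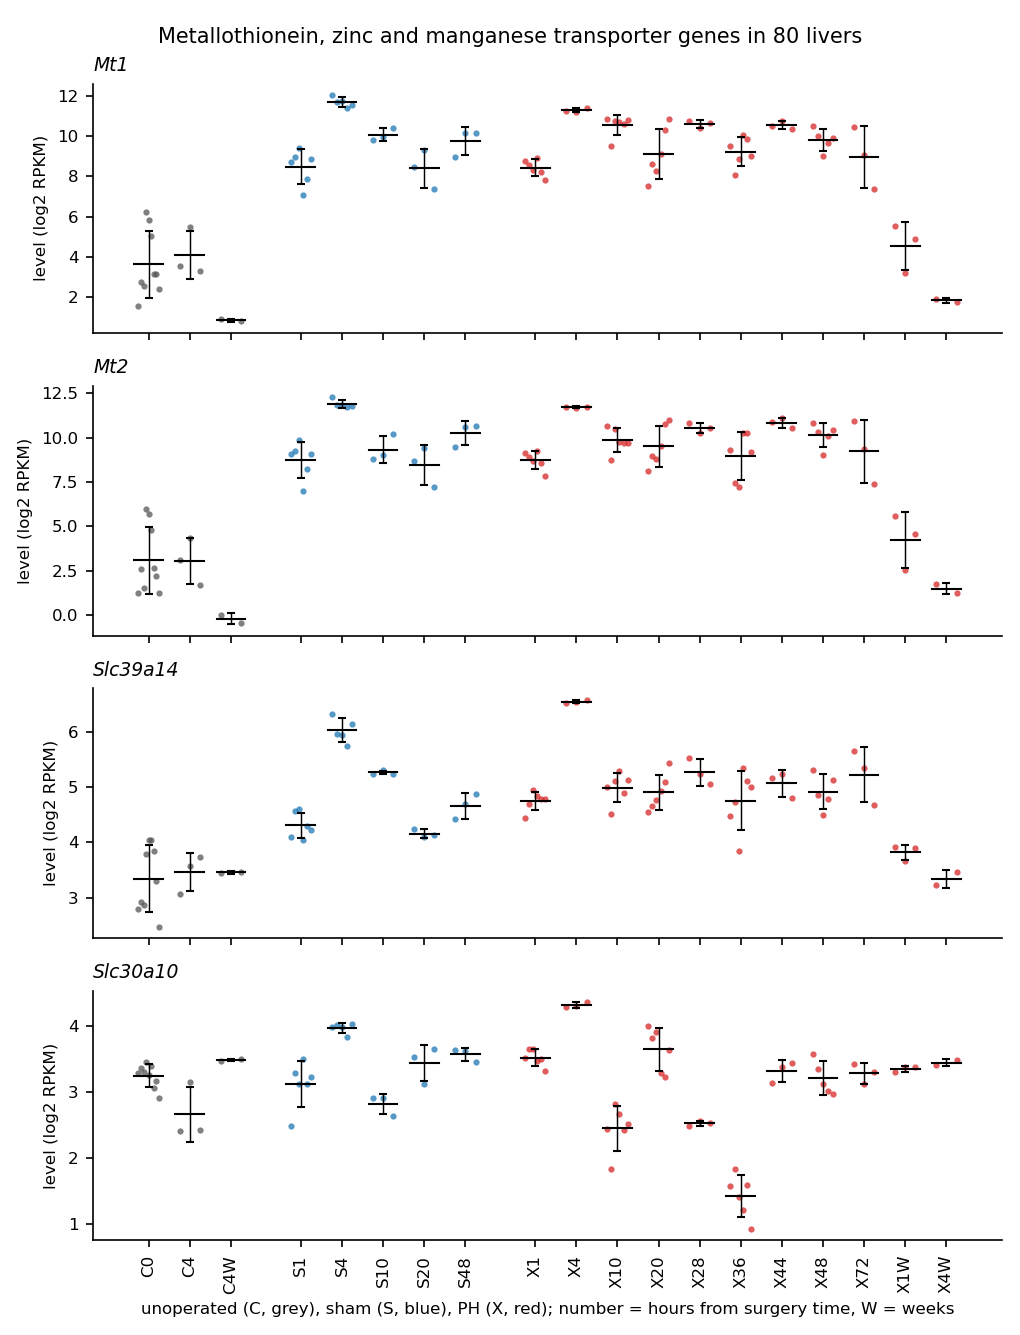
Log2 RPKM (vertical axis) of Mt1, Mt2, Slc39a14 and Slc30a10 in each of the 19 groups (horizontal axis, unoperated, sham and PH), with 1 point per liver, a line at the group mean and a bar of 1 SD. The 61 operated livers analysed from 1 to 72 h lie between 7.08 and 12.06 for Mt1, above all 14 unoperated livers, and Slc30a10 is lowest in X36.

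Within 1 h of either operation Mt2 and Mt1 were the 2 largest rises among the 15396 genes. Mt2 rose by 5.58 (SE 0.56, adjusted p = 1.5e-11) in S1 and by 5.58 (SE 0.56, adjusted p = 1.8e-12) in X1, and Mt1 by 4.82 (SE 0.47) and 4.77 (SE 0.47). The size at 1 h depended on which C0 and 1 h livers were compared: for Mt1 in S1 it was 6.69 with replicates 1 to 3 of both groups and 2.23 with replicates 4 to 6, and both were called. From 4 to 72 h both metallothioneins stayed among the 9 largest rises against unoperated livers in each sham and PH group, with differences of 4.73 to 7.56 for Mt1 and of 5.29 to 8.82 for Mt2. Mt1 was 10.48, 9.05 and 7.39 in the 3 livers at 72 h, a wide spread that still lay above every unoperated liver. Over all times from 1 to 72 h, Mt2 ranged from 6.96 to 12.28 in the 61 operated livers and from -0.44 to 5.94 in the 14 unoperated ones.

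The metallothioneins did not differ between PH and sham beyond the spread at any of the 5 shared hours. For Mt1 the PH minus sham difference was -0.05 at 1 h, -0.39 at 4 h, 0.46 at 10 h, 0.72 at 20 h and 0.05 at 48 h. These differences have wide intervals, from -1.25 to 1.36 at 48 h and from -0.55 to 1.98 at 20 h. For Mt2 the 20 h difference was 1.07 (95% interval -0.43 to 2.56). With replicates 4 to 6 of X20 alone, both were called at 20 h, Mt1 at 1.69 (adjusted p = 0.043) and Mt2 at 1.97 (adjusted p = 0.044). By 1 week the levels had come down to 5.51, 3.20 and 4.89 for Mt1, within the range of C0, and the difference to C0 was 0.88 (SE 0.60, adjusted p = 0.26). Against C0 replicates 7 to 9 alone it was called, at 1.61 (adjusted p = 0.026), as it was against replicates 1 to 3 at 2.20 (adjusted p = 0.0038).

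The pair of genes did not keep a fixed ratio. Mt2 minus Mt1, on the log2 RPKM scale per length, was -0.53 ± 0.41 (SD, n = 9) in C0 and -1.07 ± 0.59 (n = 3) in C4, so that Mt1 was the higher at rest. It was 0.21 ± 0.11 (n = 5) in S4 and 0.42 ± 0.08 (n = 3) in X4, where Mt2 was the higher in every liver, and -0.75 ± 0.45 (n = 3) in S10 and -0.69 ± 0.38 (n = 6) in X10. At 48 h after sham surgery it was 0.49 ± 0.01 (n = 3). The transcripts of the 2 genes are 52% identical over 650 aligned positions and share no stretch of 100 bases, the read length.

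Slc39a14 (ENSMUSG00000022094, chr14:70703274-70751232, reverse strand), the ZIP14 importer, rose after both operations. It had 3.07, 3.57 and 3.74 in C4, 6.33, 5.97, 5.96, 5.75 and 6.16 in S4 and 6.52, 6.55 and 6.59 in X4. The 3 groups did not overlap, with the PH livers highest. The difference was 2.55 (SE 0.24, adjusted p = 1.7e-13 by limma) in S4 and 3.07 (SE 0.27, adjusted p = 9.7e-15) in X4 against C4, and that between X4 and S4 was 0.52 (SE 0.24, adjusted p = 0.16). X4 was the highest of the 19 groups, with a mean of 94.1 RPKM against 11.0 in C4.
The rise was 0.95 (SE 0.18, adjusted p = 5.1e-05) in S1 and 1.38 (SE 0.18, adjusted p = 4.5e-09) in X1 against C0. In S1 the call rested on which livers were compared, since with replicates 4 to 6 of both groups it was 0.22 (adjusted p = 0.64). From 10 to 72 h it stayed called in every group, between 0.80 in S20 and 1.90 in S10. With replicates 4 to 6 of C0 the S20 difference was 0.19 (adjusted p = 0.52).

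PH and sham differed for Slc39a14 at 20 h. It was 4.25, 4.10 and 4.14 in S20, and 4.55 at the lowest, 4.85 at the median and 5.44 at the highest in X20. Every PH liver was above every sham liver, by 0.74 on average (SE 0.24, adjusted p = 0.028 by limma). The call was lost when single livers were left out: S20 replicate 1 (0.78, adjusted p = 0.079), S20 replicate 2 (0.71, adjusted p = 0.10), S20 replicate 3 (0.73, adjusted p = 0.079) or X20 replicate 6 (0.63, adjusted p = 0.078). It was also lost when the libraries were scaled to the same median (0.65, adjusted p = 0.058) and with X20 replicates 1 to 3 (0.50, adjusted p = 0.091).
At 1 week the livers had 3.91, 3.67 and 3.89, and the difference to C0 was 0.47 (adjusted p = 0.099). It was called without C0 replicate 5 (0.55, adjusted p = 0.045) or C0 replicate 6 (0.55, adjusted p = 0.043). The same held against C0 replicates 1 to 3 (0.94, adjusted p = 0.0011) or 7 to 9 alone (0.60, adjusted p = 0.045). With the replicate number as a block it was 0.56 (adjusted p = 0.045). The mean of C0 replicates 4 to 6 was 3.96, above all 3 livers at 1 week.

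Slc30a10 (ENSMUSG00000026614, chr1:187278727-187292641, forward strand), the manganese exporter, rose at 4 h and was low at 10 and 36 h after PH. It had 2.41, 3.15 and 2.43 in C4, 3.98, 4.02, 3.99, 3.83 and 4.03 in S4, and 4.28, 4.31 and 4.36 in X4. All 3 X4 livers were above all S4 livers and these above all C4 livers. The rise was 1.27 (SE 0.17, adjusted p = 1.7e-09 by limma) in S4 and 1.62 (SE 0.19, adjusted p = 4.3e-11) in X4, and X4 against S4 gave 0.35 (SE 0.17, adjusted p = 0.17).
At 36 h it lay between 0.93 and 1.83 (median 1.49), below every other liver analysed, of which the lowest was 1.84 in X10. Against C0, where it lay between 2.90 and 3.46, it fell by 1.73 (SE 0.12, adjusted p = 2.6e-20), a 3.31-fold lower level. In X10 it fell by 0.77 (SE 0.12, adjusted p = 8.6e-08), from a lowest of 1.84 to a highest of 2.82. In S10, at the same hour, it had 2.92, 2.90 and 2.64 and the difference to C0 was -0.41 (adjusted p = 0.020), under the fold threshold. At 28 h it lay between 2.49 and 2.56, within the ranges of X10 and of C4, the unoperated group of the same hour. The difference to C4, a 1.10-fold lower level, was not called. At 44 h the livers were back at 3.13, 3.39 and 3.45.
With libraries scaled to the same median, Slc30a10 was also called in S10 against C0 (-0.63, adjusted p = 0.00013), in X48 against S48 (-0.83, adjusted p = 1e-05) and in X48 against C0 (-0.52, adjusted p = 0.0001). Unoperated livers at ZT6 were lower than at ZT2 by 0.56 (SE 0.15, adjusted p = 0.0075), a call that was lost without C4 replicate 1 (-0.44, adjusted p = 0.086) or C4 replicate 3 (-0.45, adjusted p = 0.085) and against C0 replicates 7 to 9 alone (-0.37, adjusted p = 0.32).

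Hamp (ENSMUSG00000050440, chr7:31727390-31729036) and Hamp2 (ENSMUSG00000056978, chr7:31707391-31709200) are neighbours on the reverse strand of chromosome 7. In humans there is a single hepcidin gene, and in the mouse Hamp encodes the iron-regulatory hormone. Their transcripts are 84.7% identical over 437 aligned positions but share no identical stretch of 100 bases. Multi-mapped reads were divided among their positions in the deposited values, so that some reads may still be split between the pair. The 200 bases that end at the ATAAAAA box, 34 bases before the annotated start of Hamp (chr7:31729071-31729270, reverse strand) and 19 bases before that of Hamp2 (chr7:31709220-31709419, reverse strand), are shown because the pair parted after surgery. Capitals mark GGCGCC, the core of a BMP-responsive element, or the 6 bases at its place, and a STAT-type match to TTCNNNGAA.
Hamp: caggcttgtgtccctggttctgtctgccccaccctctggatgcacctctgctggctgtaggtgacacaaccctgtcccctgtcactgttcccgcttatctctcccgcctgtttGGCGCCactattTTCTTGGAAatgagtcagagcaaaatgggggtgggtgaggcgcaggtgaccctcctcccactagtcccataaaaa
Hamp2: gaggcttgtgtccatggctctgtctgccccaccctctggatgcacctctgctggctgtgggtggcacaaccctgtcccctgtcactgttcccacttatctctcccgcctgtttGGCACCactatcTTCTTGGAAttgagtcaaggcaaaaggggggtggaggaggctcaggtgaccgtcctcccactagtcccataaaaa
The stretches are identical at 184 of 200 positions (92.0%). At the 6 bases Hamp2 differs from Hamp by G4A, counted from 1 at their 5′ end. In windows from 250 bases before to 150 after the start, 19.3% of the 22380 genes hold GGCGCC and 10.1% hold the STAT-type letters.

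Hamp was called higher than in C0 in X10 and X36 and lower in X72 and X1W. It had 11.10, 11.44 and 10.75 in C4, 11.98, 11.59, 11.75, 12.11 and 11.79 in S4, and 11.78, 11.93 and 12.39 in X4. The operated livers were all above the C4 livers, but the difference was 0.75 (SE 0.47, adjusted p = 0.17 by limma) in S4 and 0.94 (SE 0.52, adjusted p = 0.12) in X4 and was not called. Both were called when only the 2 groups compared were fitted (adjusted p = 0.015 and 0.028). The unoperated livers themselves differed, since C4 exceeded C0 by 1.70 (SE 0.43, adjusted p = 0.0046), with the hour and the period not told apart. The call was lost without C4 replicate 2 (1.53, adjusted p = 0.068). It was also lost against C0 replicates 7 to 9 alone (0.98, adjusted p = 0.28), whose mean Hamp level was the highest of the 3 sets.

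At 10 h Hamp had 10.13, 10.22 and 10.31 in the sham livers, and 10.94 at the lowest, 11.47 at the median and 11.85 at the highest in the PH livers. Every PH liver was above every sham liver, but the difference of 1.19 (SE 0.45, adjusted p = 0.074 by limma) was not called. It was called when only X10 and S10 were fitted (adjusted p = 0.021) and with replicates 4 to 6 of X10 (1.40, adjusted p = 0.030). Against C0, Hamp rose in X10 by 2.02 (SE 0.34, adjusted p = 4.8e-07), 4.05-fold, and in X36 by 1.14 (SE 0.34, adjusted p = 0.0028). The rise at 36 h was 0.42 (adjusted p = 0.38) against C0 replicates 7 to 9 alone, 0.96 (adjusted p = 0.073) with replicates 4 to 6 of both groups and 0.76 (adjusted p = 0.053) with libraries scaled to the same median.

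At 48 h the order of the livers was the other way, a change from 10 h that was not tested. Hamp had 10.32, 11.22 and 9.63 in the sham livers and 9.49, 9.34, 7.83, 7.49 and 9.57 in the PH livers, so that every PH liver was below every sham liver. PH was lower by 1.65 on the log2 scale (log2 difference -1.65, SE 0.47, adjusted p = 0.0031 by limma), 3.13-fold. Without S48 replicate 2 the difference was -1.23 (adjusted p = 0.057), and with only the 2 groups fitted its adjusted p was 0.067. Hamp was also low at 72 h, at 8.84, 8.00 and 8.01, with a difference to C0 of -1.11 (adjusted p = 0.024) that was not called without X72 replicate 2 (-0.97, adjusted p = 0.11) or X72 replicate 3 (-0.98, adjusted p = 0.11). Against C0 replicates 1 to 3 alone it was -0.39 (adjusted p = 0.59), and with the replicate number as a block -0.58 (adjusted p = 0.30). It was lowest at 1 week, at 7.58, 7.60 and 6.32, where it fell by 2.23 against C0 (SE 0.43, adjusted p = 4.7e-05), 4.68-fold, the 8th largest fall of all genes. The C0 livers lay between 7.47 and 10.45, and the lowest of them was below 2 of the 3 livers at 1 week. At 4 weeks Hamp had 9.67 and 9.54 after PH and 9.87 and 10.09 in C4W.
Other differences of Hamp to C0 were called only in some settings. That of X44 was -0.69 and was called without C0 replicate 2 (-0.93, adjusted p = 0.043), against C0 replicates 7 to 9 alone (-1.41, adjusted p = 0.0081) and with libraries scaled to the same median (-1.21, adjusted p = 0.017). That of X48 was -0.66 and was called without C0 replicate 2 (-0.90, adjusted p = 0.018), C0 replicate 3 (-0.80, adjusted p = 0.049) or X48 replicate 5 (-0.86, adjusted p = 0.048), against C0 replicates 7 to 9 alone (-1.37, adjusted p = 0.0037) and with libraries scaled to the same median (-1.15, adjusted p = 0.0059). That of X20 was 0.58 and was called without X20 replicate 3 (0.84, adjusted p = 0.041) and with replicates 4 to 6 of both groups (1.28, adjusted p = 0.025). Those of S10 (0.82) and S48 (0.99) were called against C0 replicates 1 to 3 (1.54, adjusted p = 0.020, and 1.71, adjusted p = 0.030).

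**Figure D2:**
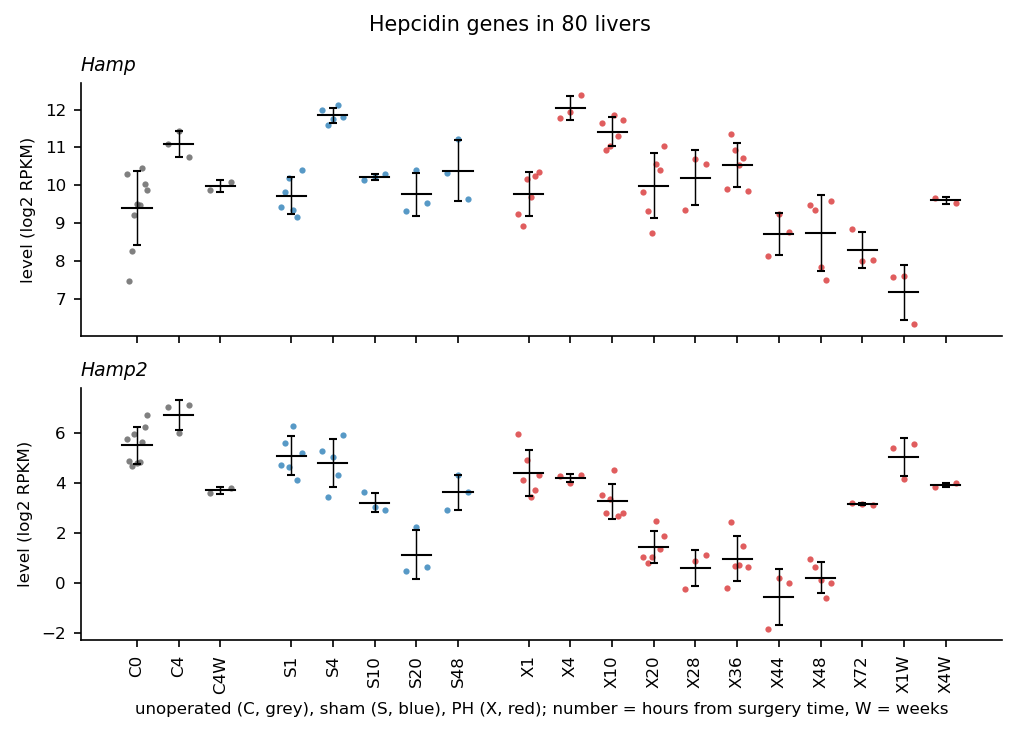
Log2 RPKM (vertical axis) of Hamp and Hamp2 in each group (horizontal axis), with 1 point per liver, a line at the group mean and a bar of 1 SD. Hamp is highest in X4 and lowest in X1W, while Hamp2 is lowest in X28 to X48, with a lowest liver of -1.84 in X44.

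Hamp2 fell early after both operations and stayed low to 72 h after PH. It had 7.04, 6.02 and 7.12 in C4, 5.30, 3.45, 5.05, 4.32 and 5.93 in S4, and 4.30, 4.00 and 4.32 in X4. It fell by 1.91 (SE 0.50, adjusted p = 0.0008 by limma) in S4 and by 2.50 (SE 0.55, adjusted p = 0.0001) in X4, with no overlap of either group with C4. At 1 h it fell by 1.08 in X1 against C0 (SE 0.36, adjusted p = 0.013), which was lost without X1 replicate 4 (-0.88, adjusted p = 0.060) and was -0.10 with replicates 1 to 3 of both groups (adjusted p = 0.94). With replicates 4 to 6 it was -1.36 (adjusted p = 0.063). The difference in S1 was -0.41 (adjusted p = 0.43).
At 20 h the sham livers had 0.49, 2.25 and 0.65, and Hamp2 fell by 4.22 (SE 0.45, adjusted p = 1.3e-10), the largest fall of the 15396 genes in that comparison. In X20 it fell by 3.95 (SE 0.36, adjusted p = 1.6e-14), and X20 and S20 differed by 0.26 (95% interval -0.69 to 1.22). No unoperated livers were taken at this hour of the day.

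The PH and sham livers parted for Hamp2 by 48 h. The sham livers had 2.92, 4.31 and 3.66, and the PH livers 0.98, 0.65, 0.10, -0.62 and -0.02, with no overlap. PH was lower by a log2 difference of -3.15 (SE 0.50, adjusted p = 3.8e-07 by limma), 8.88-fold, the 6th largest fall of all genes, and this call was kept in every alternative, between -3.56 and -2.61. Against unoperated livers of the same hour, Hamp2 fell by 5.91 in X28 (SE 0.55, adjusted p = 5.6e-13), 60.0-fold, and by 5.01 in X48 (SE 0.38, adjusted p = 1.8e-18), 32.2-fold. At 48 h after sham surgery the fall was 1.86 (SE 0.45, adjusted p = 0.0025), which was lost without S48 replicate 1 (-1.51, adjusted p = 0.058) and against C0 replicates 1 to 3 alone (-1.47, adjusted p = 0.054). At 72 h the PH livers had 3.20, 3.14 and 3.13, above every liver of X20 to X48, and the fall to C0 was 2.32 (SE 0.45, adjusted p = 1.6e-05). At 1 week, when Hamp was lowest, Hamp2 had 5.42, 4.17 and 5.56 and did not differ from C0 beyond the spread (-0.46, SE 0.45, adjusted p = 0.47). In unoperated livers Hamp2 at ZT6 exceeded its ZT2 level by 1.21 (adjusted p = 0.057), which was called without C0 replicate 8 (1.30, adjusted p = 0.033) or 9 (1.36, adjusted p = 0.025).

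The distance between Hamp and Hamp2 varied. Hamp minus Hamp2, per length, was 3.89 ± 0.80 (SD, n = 9) in C0, 9.61 ± 0.17 (n = 3) in X28 and 9.57 ± 0.54 (n = 6) in X36, and 2.12 ± 1.33 (n = 3) in X1W. In S20 it was 8.63 ± 0.41 (n = 3) and in X20 8.55 ± 0.58 (n = 6). In the order of levels over all genes Hamp stood at 102 in C0 and at 338 in X1W, and Hamp2 at 936 in C0 and at 11260 in X44. In the table of all groups, Hamp2 had libraries that overlapped between 15 of 18 pairs of neighbours in the order of means, and Hamp between 17 of 18.

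Tfrc, Fth1 and Slc40a1 carry iron-responsive elements, RNA hairpins that bind iron regulatory proteins when iron is scarce. In the 5′ UTR such a hairpin blocks translation, and in the 3′ UTR of Tfrc they stabilise the mRNA. The hairpin was searched in the annotated transcripts as an unpaired C, 5 bases, the loop CAGTGN and 5 bases that pair with the first 5, and 1.09% of 22380 protein-coding genes hold 1 or more. Tfrc had 4 in its 3′ UTR, the first at chr16:32631305-32631333 on the forward strand, and 0.0134% of genes hold 2 or more. Fth1 had 1 in its 5′ UTR (chr19:10057222-10057250, forward strand) and Slc40a1 had 1 in its 5′ UTR (chr1:45982310-45982338, reverse strand). They are shown with the loop in capitals because these 3 genes can also be controlled after transcription, which transcript levels show only in part.
Tfrc element 1: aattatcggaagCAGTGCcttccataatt
Tfrc element 2: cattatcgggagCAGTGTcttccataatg
Tfrc element 3: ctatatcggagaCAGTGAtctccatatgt
Tfrc element 4: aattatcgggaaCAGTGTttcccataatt
Fth1 element: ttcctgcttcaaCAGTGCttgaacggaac
Slc40a1 element: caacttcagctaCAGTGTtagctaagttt
The other 7 genes held none in the transcripts searched.

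Tfrc (ENSMUSG00000022797, chr16:32609006-32632880, forward strand), which takes up transferrin-bound iron, was called higher than in C0 in each PH group compared with C0. It had 2.45, 1.59 and 1.67 in S20, and 2.81 at the lowest, 3.18 at the median and 3.65 at the highest in X20. Every PH liver was above every sham liver, by 1.22 (SE 0.27, adjusted p = 0.0013 by limma), and no alternative lost this call. In the same comparison 2 of 4 markers of dividing cells rose, and their summed level was 0.189 to 0.242 RPKM in S20 and 0.292 to 2.28 RPKM in X20. The part of dividing cells in the difference of Tfrc was not tested.
Against C0, where Tfrc lay between 0.42 and 2.35, these rises ran from 0.79 (X48) to 1.77 (X72). At 28 h it had 2.91, 2.71 and 2.38 and rose by 1.51 against C4 (SE 0.31, adjusted p = 5.4e-05). At 72 h it had 3.68, 3.17 and 3.40, and at 1 week 2.60, 3.08 and 3.63, all above C0, with a rise of 1.46 at 1 week (SE 0.25, adjusted p = 7.7e-06). The C4W livers, with 2.63 and 2.49, were also above every C0 liver. The rise in X48 was 0.32 (adjusted p = 0.18) with libraries scaled to the same median, and that in X44 was 0.49 (adjusted p = 0.091). Against C0 replicates 1 to 3 alone these were 0.41 (adjusted p = 0.18) and 0.60 (adjusted p = 0.080).
The 4 markers of dividing cells all rose in each of X28, X36, X44, X48, X72 and X1W against unoperated livers, and none of them was at 0 throughout a group. They summed to 0.324 to 2.41 RPKM in C0, 67.3 to 121 RPKM in X44 and 3.30 to 8.07 RPKM in X1W. Erythroid precursors also express Tfrc, and of the 6 erythroid markers 3 passed the filter. Of these, 2 rose in X36, X44 and X1W, while 1 fell in X36 and X44. The erythroid sum was 32.8 to 98.6 RPKM in C0 and 85.3 to 93.8 RPKM in X1W. In X36 it was 25.6 to 78.3 RPKM and in X44 29.8 to 53.4 RPKM. Epb4.2 was at 0 in every C0 liver, and no marker was at 0 throughout X36, X44 or X1W. The part of both kinds of cell in the Tfrc differences was not tested.

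After sham surgery Tfrc rose by 0.99 in S4 (SE 0.28, adjusted p = 0.0016 by limma) and by 1.00 in S10 (SE 0.25, adjusted p = 0.00072). The first was lost with S4 replicates 4 and 5 (0.65, adjusted p = 0.080) and the second against C0 replicates 1 to 3 (0.62, adjusted p = 0.080). In X4, with 1.66, 1.25 and 1.61, the difference to C4 was 0.42 (adjusted p = 0.25), and X4 against S4 gave -0.57 (SE 0.28, adjusted p = 0.17). The call in S1 (0.52, adjusted p = 0.045) was lost without C0 replicate 3, 7, 8 or 9 or without S1 replicate 1, 2 or 4, with values of 0.32 to 0.55 and an adjusted p of 0.053 to 0.25. It was lost too with replicates 1 to 3 of both groups (0.29, adjusted p = 0.47) and with replicates 4 to 6 (0.11, adjusted p = 0.94). For X1 the rise of 0.86 (adjusted p = 0.00041) became 0.52 (adjusted p = 0.19) with replicates 1 to 3 and 0.56 (adjusted p = 0.18) with replicates 4 to 6.

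**Figure D3:**
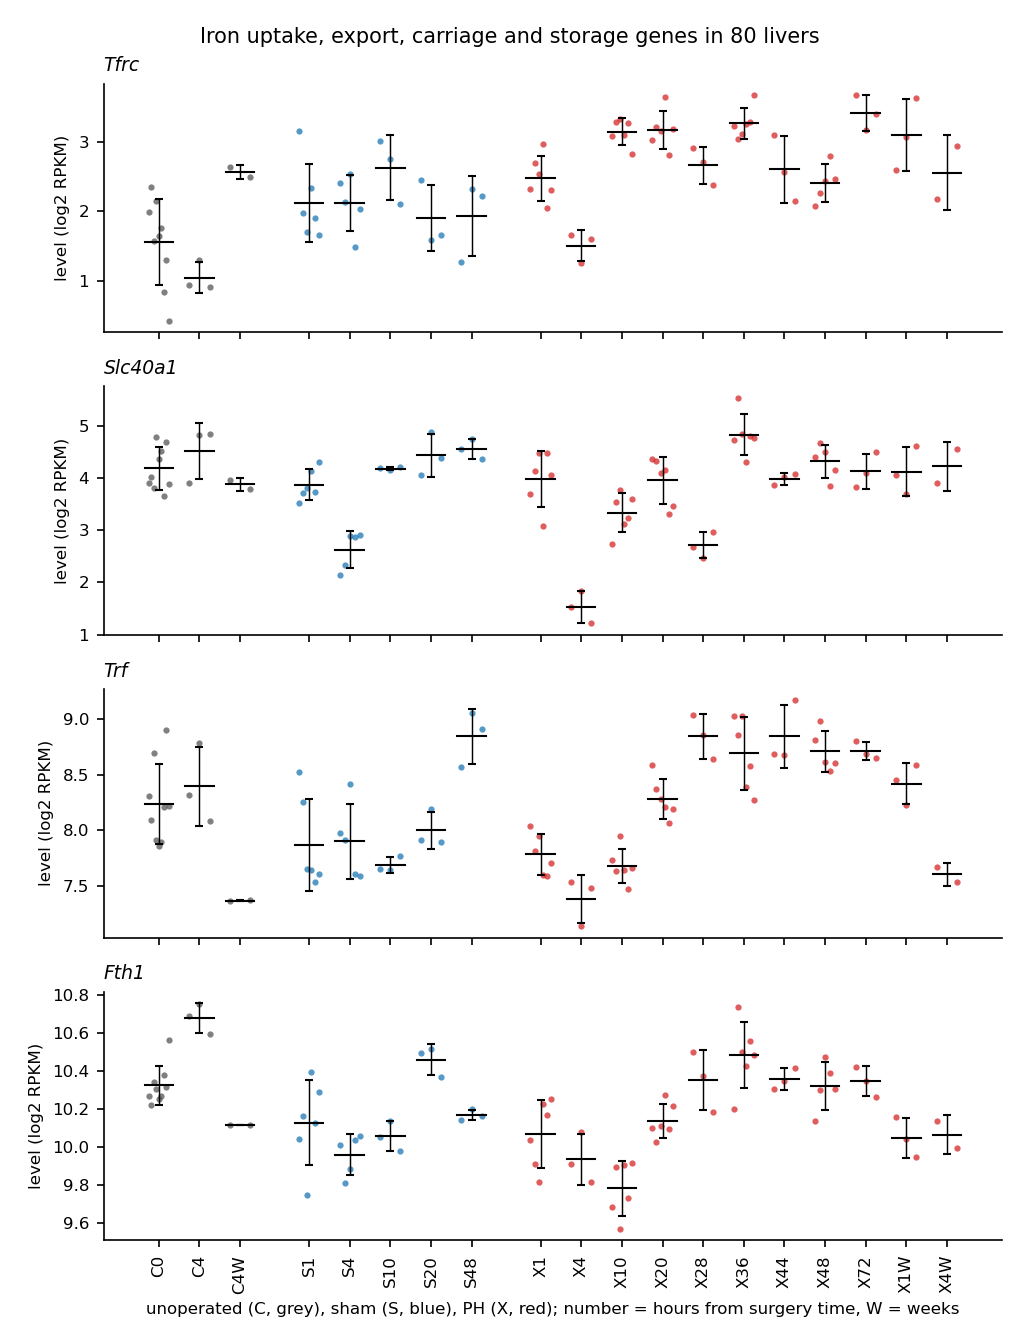
Log2 RPKM (vertical axis) of Tfrc, Slc40a1, Trf and Fth1 in each group (horizontal axis), with 1 point per liver, a line at the group mean and a bar of 1 SD. Slc40a1 is lowest in X4, at 1.54, 1.84 and 1.22, and Fth1 keeps within 9.57 and 10.75 in all livers.

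Slc40a1 (ENSMUSG00000025993, chr1:45964915-45982439, reverse strand), the only known exporter of iron from cells, fell at 4 h, and fell further after PH than after sham surgery. It had 3.90, 4.83 and 4.85 in C4, 2.15, 2.33, 2.89, 2.87 and 2.91 in S4, and 1.54, 1.84 and 1.22 in X4. The 3 groups did not overlap. It fell by 1.85 (SE 0.27, adjusted p = 2.6e-08 by limma) in S4 and by 2.89 (SE 0.30, adjusted p = 1.7e-12) in X4.
X4 against S4 gave -1.04 (SE 0.27, adjusted p = 0.0043), which was lost without X4 replicate 6 (-0.89, adjusted p = 0.055). Macrophages, like hepatocytes, express Slc40a1, and the 7 macrophage and Kupffer cell markers summed to 29.5 to 40.4 RPKM in C4, 11.3 to 29.5 RPKM in S4 and 11.5 to 14.8 RPKM in X4. Of these 7, 3 fell in S4 and 4 in X4 against C4. In X4 against S4, 0 of the 7 were called, with a median log2 difference of -0.37. The part of these cells in the result was not tested.
At 10 h the sham livers had 4.19, 4.16 and 4.21, and the PH livers 2.75 at the lowest, 3.39 at the median and 3.78 at the highest, again without overlap. The difference was -0.83 (SE 0.26, adjusted p = 0.025), and it was not called without S10 replicate 1 (-0.83, adjusted p = 0.075), S10 replicate 2 (-0.85, adjusted p = 0.079), S10 replicate 3 (-0.82, adjusted p = 0.091) or X10 replicate 1 (-0.72, adjusted p = 0.080). The macrophage markers summed to 12.6 to 18.1 RPKM in S10 and 5.04 to 31.4 RPKM in X10.
At 28 h the level was low again, at 2.68, 2.48 and 2.97, a fall of 1.78 against C4 (SE 0.30, adjusted p = 2e-06), while the macrophage markers summed to 24.0 to 63.0 RPKM. At 36 h it was highest, between 4.32 and 5.55, a rise of 0.64 against C0 (SE 0.19, adjusted p = 0.0032) that was 0.26 (adjusted p = 0.19) with libraries scaled to the same median and 0.07 (adjusted p = 0.88) with replicates 4 to 6 of both groups. At 48 h PH and sham differed by -0.23 (95% interval -0.77 to 0.30), and by -0.72 (adjusted p = 0.019) when so scaled.

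Fth1 (ENSMUSG00000024661, chr19:10057193-10059582, forward strand), the iron-oxidising subunit of ferritin, had the smallest span of the 10 genes, 0.90 on the log2 scale between the lowest group mean (X10) and the highest (C4). It stood between the 50th and the 89th place by level per length in every group. It had 10.69, 10.75 and 10.60 in C4, 10.01, 9.81, 9.89, 10.04 and 10.06 in S4, and 9.91, 10.08 and 9.82 in X4, and it fell by 0.72 (SE 0.10, adjusted p = 2.2e-08 by limma) in S4 and by 0.74 (SE 0.12, adjusted p = 1.4e-07) in X4. All operated livers at 4 h were below all C4 livers. With libraries scaled to the same median, the differences were -0.48 and -0.46, under the fold threshold. In X10 it fell by 0.54 (SE 0.07, adjusted p = 3.4e-09) against C0. This too was under the threshold without X10 replicate 3 (-0.50), with replicates 4 to 6 of both groups (-0.43) and with the replicate number as a block (-0.49). At 20 h the PH minus sham difference of -0.32 had an adjusted p of 0.022 but was under the fold threshold.

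Trf (ENSMUSG00000032554, chr9:103106331-103132774, reverse strand), the plasma iron carrier secreted by hepatocytes, fell in X4, S10 and X10 and rose in S48 and X44. It had 8.32, 8.79 and 8.08 in C4, 7.53, 7.13 and 7.48 in X4, and 7.98, 7.91, 8.41, 7.60 and 7.58 in S4. It fell by 1.01 (SE 0.21, adjusted p = 5.6e-05 by limma) in X4, where no liver overlapped C4. In S4 the difference was -0.50 (adjusted p = 0.023), just under the fold threshold, and it passed without C4 replicate 1 (-0.54) or 3 (-0.65) or without S4 replicate 1 (-0.52), 2 (-0.50) or 3 (-0.63).
X4 against S4 gave -0.52 (SE 0.19, adjusted p = 0.060), which was called without S4 replicate 4 (-0.59, adjusted p = 0.036) or S4 replicate 5 (-0.59, adjusted p = 0.034). At 10 h it fell by 0.55 in both S10 (adjusted p = 0.0077) and X10 (adjusted p = 0.00042). Both dropped to the fold threshold or below without C0 replicate 3 (-0.49 and -0.50) or C0 replicate 8 (-0.46 and -0.47), and with replicates 4 to 6 of C0 and X10 they were -0.20 (adjusted p = 0.25) and -0.30 (adjusted p = 0.072).
At 48 h it had 8.57, 9.06 and 8.92 in the sham livers and 8.81, 8.98, 8.62, 8.53 and 8.61 in the PH livers. The rise against C0 was 0.61 in S48 (SE 0.18, adjusted p = 0.010), which was lost without S48 replicate 2 (0.51, adjusted p = 0.098) or 3 (0.58, adjusted p = 0.055). In X44 it was 0.61 (SE 0.18, adjusted p = 0.0022), which was lost without X44 replicate 3 (0.45, adjusted p = 0.058) and was 0.09 with libraries scaled to the same median. Against C0 replicates 7 to 9 alone both rises were 0.40 (adjusted p = 0.12 and 0.089).
Other differences of Trf to C0 lay just under the fold threshold, at 0.46 in X36 (adjusted p = 0.0032), 0.48 in X48 (adjusted p = 0.0037) and 0.48 in X72 (adjusted p = 0.017). They passed it without C0 replicate 3 (0.52, 0.54 and 0.54) or C0 replicate 8 (0.54, 0.56 and 0.57). Single operated livers decided them as well, since X36 passed without replicate 4 (0.52) or 6 (0.54), X48 without replicate 3, 4 or 5 (0.50 to 0.52) and X72 without replicate 3 (0.51). In X28 the difference to C4 of 0.45 (adjusted p = 0.081) was called without C4 replicate 2 (0.65, adjusted p = 0.024), and in X1 that to C0 of -0.45 (adjusted p = 0.0078) passed the fold threshold without X1 replicate 1.

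Set side by side, the PH minus sham differences named Slc40a1 at 4 and 10 h, Tfrc and Slc39a14 at 20 h, and the hepcidin genes at 48 h. Whether a difference changed between 4 and 48 h was tested as the difference of the 2 differences, in which 4 of the 10 genes were called, as were 33.6% of all genes. PH minus sham for Hamp2 was -0.60 at 4 h and -3.15 at 48 h, a change of -2.55 (SE 0.70, adjusted p = 0.0025 by limma). For Hamp it was 0.19 and -1.65, a change of -1.83 (SE 0.66, adjusted p = 0.022), which was lost without S48 replicate 2 (-1.42, adjusted p = 0.11), X4 replicate 6 (-1.66, adjusted p = 0.065), X48 replicate 3 (-1.61, adjusted p = 0.052) or X48 replicate 4 (-1.52, adjusted p = 0.062).
For Slc30a10 it was 0.35 and -0.35, a change of -0.70 (SE 0.23, adjusted p = 0.014). For Tfrc it was -0.57 and 0.44, a change of 1.02 (SE 0.39, adjusted p = 0.032), lost without S4 replicate 1 or 3, S48 replicate 1, X4 replicate 5 or X48 replicate 4, with values of 0.71 to 0.95 and an adjusted p of 0.054 to 0.19, and with replicates 4 to 6 (0.68, adjusted p = 0.19). The median change over all genes was 0.32, and with libraries scaled to the same median that of Tfrc was 0.51 (adjusted p = 0.36).

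**Figure D4:**
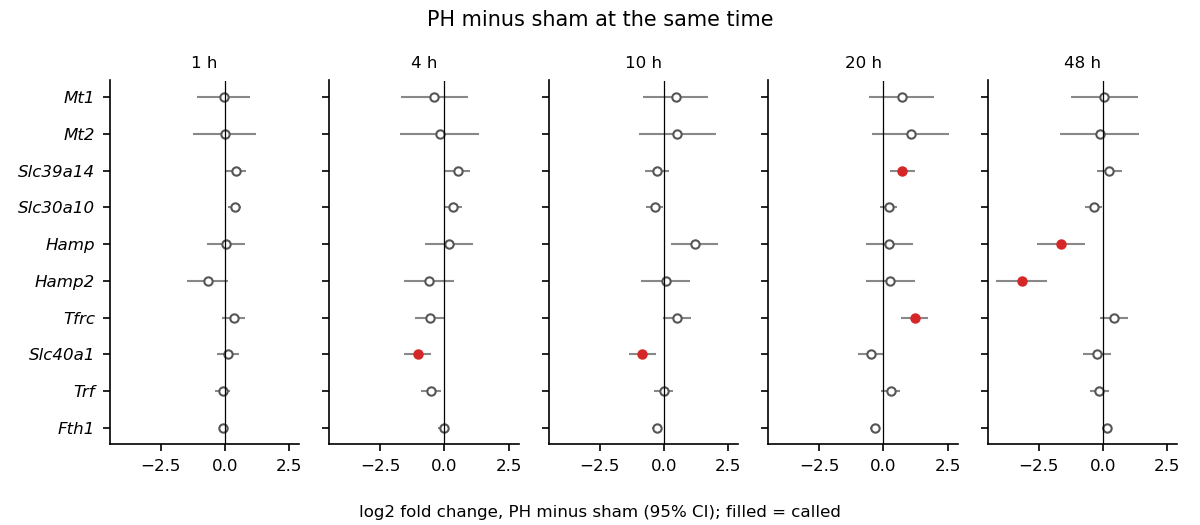
Log2 fold change of PH against sham (horizontal axis) for each of the 10 genes (vertical axis), with 1 panel for each of the 5 shared hours from 1 to 48 h, 95% intervals from limma, and filled red points where the difference was called. The red points are Slc40a1 at 4 and 10 h, Slc39a14 and Tfrc at 20 h, and Hamp and Hamp2 at 48 h, the last at -3.15.

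Sham livers themselves differed widely from unoperated livers. At 48 h, when sham and C0 livers were of the same hour, Mt1 was 8.99, 10.15 and 10.16 in the sham livers, above every C0 liver, with a rise of 6.10 (SE 0.60, adjusted p = 3.2e-12 by limma). Mt2 rose by 7.09 (SE 0.70, adjusted p = 4.7e-12) and Slc39a14 by 1.30 (SE 0.22, adjusted p = 1.7e-05). Slc40a1, with 4.56, 4.75 and 4.37, did not differ from C0 beyond the spread at 48 h (0.36, adjusted p = 0.32), after its fall at 4 h.

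**Figure D5:**
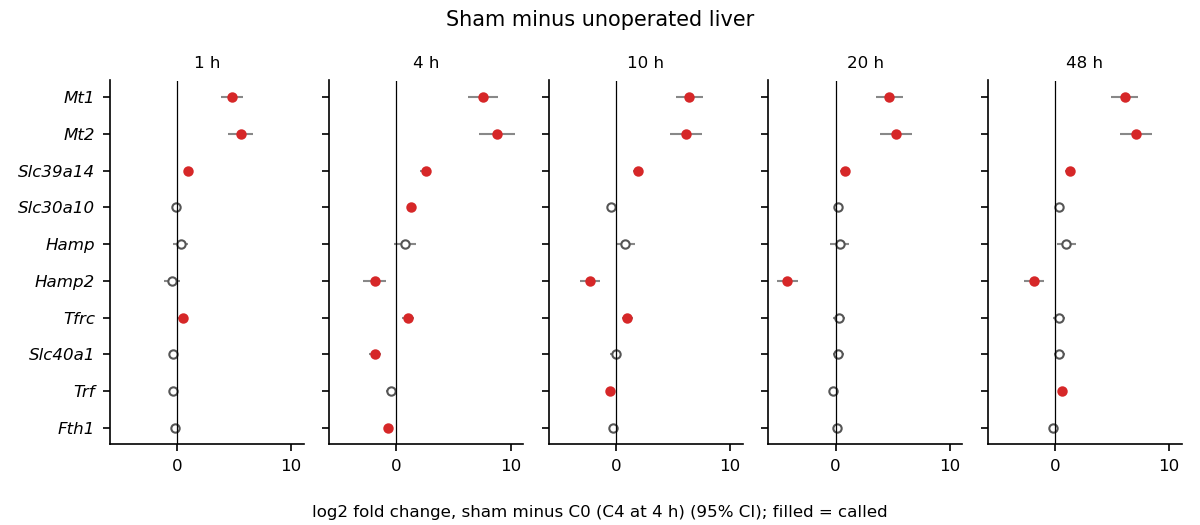
Log2 fold change of sham against unoperated livers (horizontal axis) for each of the 10 genes (vertical axis), with 1 panel for each of the 5 shared hours from 1 to 48 h, 95% intervals from limma, and filled red points where the difference was called. The unoperated group is C4 at 4 h and C0 otherwise, and Mt1 and Mt2 are called at each hour, at 7.56 and 8.82 at 4 h.

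The other genes of metal handling came from a list of 71 further genes (metallothioneins and their factor, Slc39 and Slc30 transporters, hepcidin control, iron uptake, storage and export, iron sensing, heme handling), of which 62 passed the filter. In S4 against C4, 22 rose and 14 fell, with a median difference of 0.08, while 12.2% of all genes rose and 31% fell, with a median of -0.22. The largest rises were Lcn2 (9.18, SE 0.64, adjusted p = 2.4e-18 by limma), which binds iron-loaded siderophores, the metalloreductase Steap4 (5.11, SE 0.45) and the ferritin receptor Scara5 (3.60, SE 0.55). Lcn2 is also a neutrophil granule protein, and 4 of the 5 neutrophil markers rose, from sums of 1.04 to 4.38 RPKM in C4 to 6.92 to 41.6 RPKM in S4. Their part in the result was not tested. The largest falls were Hfe2 (hemojuvelin, the BMP co-receptor that drives hepcidin; -2.33, SE 0.20, adjusted p = 2e-15), the ferrireductase Steap3 (-1.58) and the biliverdin reductase Blvrb (-1.46). Steap3 and Blvrb are also expressed in erythroid cells, and 2 of the 3 erythroid markers tested fell, from sums over all 6 of 64.9 to 98.0 RPKM in C4, with Epb4.2 at 0 in each liver, to 29.0 to 47.2 RPKM in S4. Their part in these falls was not tested either. Among all called genes of this comparison 28.3% were higher, and 46% when libraries were scaled to the same median.

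Between PH and sham, 5 of the 62 other genes had an unadjusted limma p below 0.05 at 1 h and 0 were called, 7 were called at 4 h (3 higher, 4 lower), 2 at 10 h (1 higher, 1 lower), 2 at 20 h, both higher, and 17 at 48 h (16 higher, 1 lower). Over all genes the shares higher and lower were 3.16% and 5.48% at 4 h, 3.4% and 3.62% at 10 h, 4.49% and 2.61% at 20 h, and 24.5% and 2.69% at 48 h. Id1, a target of BMP signalling, was higher after PH at 4 h (1.94, SE 0.43, adjusted p = 0.00087 by limma), at 10 h (2.20, SE 0.42, adjusted p = 0.00016) and at 48 h (1.54, SE 0.43, adjusted p = 0.0026). Also at 4 h Smad7, an inhibitor of the same signal, was higher (0.71, adjusted p = 0.029), as was Hfe2 (0.61, adjusted p = 0.027), while the ligand Bmp2 (-0.80, adjusted p = 0.0058), the zinc exporter Slc30a1 (-0.78, adjusted p = 0.0075) and the zinc importer Slc39a6 (-0.57, adjusted p = 0.033) were lower. At 10 h Slc39a8, an importer of zinc and manganese, was lower (-0.52, adjusted p = 0.0053). At 20 h Steap4 (1.43, adjusted p = 0.020) and the plasma ferroxidase Cp (0.84, adjusted p = 0.0014) were higher.
At 48 h the largest rises were the zinc transporter Slc30a3 (1.96, SE 0.28, adjusted p = 2.9e-08), Id1 and Lcn2 (1.52, adjusted p = 0.047), and Bmp2 was the gene that fell (-0.61, adjusted p = 0.016). The list had a median of 0.32 at 48 h, near that of all genes (0.27). Of all called genes 90.1% were higher, against 38.8% with libraries scaled to the same median.
At 1 week 20 of the 62 genes rose and 3 fell against C0, while 12.4% of all genes rose and 4.48% fell. The largest rises were Lcn2 (4.60, SE 0.59, adjusted p = 1.4e-08), Scara5 (1.54, adjusted p = 0.013) and the heme carrier Hpx (1.32, adjusted p = 1.4e-05). The falls were Id1 (-0.997, SE 0.39, adjusted p = 0.043), the BMP target Atoh8 (-0.72, adjusted p = 0.015) and Blvrb (-0.60, adjusted p = 0.00029). Between unoperated livers at ZT6 and ZT2, 4 of the 62 rose and 2 fell, against 5.81% and 2.08% of all genes. The largest rises were Id1 (2.04, SE 0.39, adjusted p = 0.00034), the BMP inhibitor Smad6 (0.76, adjusted p = 0.010) and Atoh8 (0.70, adjusted p = 0.035), and the falls were the iron transporter Slc11a2 (-0.58, adjusted p = 0.022) and Steap3 (-0.58, adjusted p = 0.049). At 4 weeks 0 of the 62 genes were called against C4W, and 3 had an unadjusted limma p below 0.05.

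The genes whose course over the 19 group means was most like that of a member were found by Pearson's r among 11561 genes with a group mean log2 RPKM above 0, as a description without a test. The 19 groups share hours and kinds of surgery. For Mt1 these were Mt2 (r = 0.994), the lipopolysaccharide-binding protein Lbp (0.911) and Hipk3 (0.907). For Slc39a14 they were Snx10 (0.963), Hip1r (0.950) and the interleukin-1 receptor Il1r1 (0.945). For Slc30a10 they were Pnrc1 (0.884), the threonyl-tRNA synthetase Tars (0.880) and Leap2 (0.864), and for Hamp they were Gm10157 (0.858), Prr3 (0.849) and the apolipoprotein Apoa5 (0.819). For Tfrc they were Lman1 (0.893), Nsun2 (0.884) and Ascc3 (0.876), and for Slc40a1 they were Prosapip1 (0.917), Ehbp1 (0.915) and Usp28 (0.907). Hamp had the weakest best match of these 6 genes.

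Ordered by group mean, Mt1 spanned 10.86 on the log2 scale (C4W to S4), Mt2 12.12, Hamp2 7.28 (X44 to C4), Hamp 4.86 (X1W to X4), Slc40a1 3.31 (X4 to X36), Slc39a14 3.22 (X4W to X4), Slc30a10 2.89 (X36 to X4), Tfrc 2.37 (C4 to X72), Trf 1.49 (C4W to S48) and Fth1 0.90. Neighbours in that order had overlapping libraries in 14 (Mt2) to 18 of 18 cases. For Mt1 the neighbours without overlap were C4W and X4W, X1W and S20, and X28 and X4, and the second of these gaps divides the unoperated and late livers from the operated ones of 1 to 72 h. For Hamp2 they were X20 and X72, C4W and X4W, and X4W and X4, and for Slc40a1 they were X4 and S4.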

How the data were processed

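Poly(A) RNA of individual livers was sequenced as single-end reads of 100 bases. Per the labels and the study's methods, the authors mapped reads to mm9 with TopHat2 2.0.13 (with Bowtie2 and SAMtools 0.1.19), divided multi-mapped reads by their positions, counted with featureCounts and deposited log2 RPKM values, with genes without reads at -14.29. Of 84 value columns, 80 matched 1 label each and 4 were not used. The other 7 labelled samples were not analysed here.

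RPKM values were restored and log2(RPKM + 0.25) was fitted with limma 3.58.1 (R 4.3.3, intensity trend) in 1 model of 19 groups over 15396 genes. Intervals are 95%. The fit was tested on simulated data. No count test was run, since low values (up to 10 reads, within 0.05 of a whole read) were whole in 37.2% of cases in the lowest library and 76.5% at the median. Within groups no library was a copy of another. Other settings were another pseudocount, no filter, a stricter filter, scaling to the median, fitting only the groups compared, a replicate block, replicates taken 3 at a time, and each replicate left out.

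Members and lists were chosen with earlier results of these data known. Other genes of the list are named only among the 3 largest called rises or falls of a comparison with a group mean log2 RPKM above 0, beside the genes most alike in course. Sequences came from NCBIM37 (mm9) with GENCODE vM1, using Biopython 1.88.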

Additional observations from a re-analysis of the deposited data

Results flagged for a closer look

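In 4 of the 80 sets of a gene and a group of 4 to 10 livers that were examined, 1 liver stood apart from its group beyond Dixon's limit, which chance gives in about 1 of 20. Mt1 was 9.534 (log2 RPKM) in X10 replicate 2, and 10.59 to 10.86 in the other X10 livers. Mt2 was 12.28 in S4 replicate 1, against 11.76 to 11.85 in the others. Slc30a10 was 3.829 in S4 replicate 4, against 3.984 to 4.03, and Fth1 was 10.57 in C0 replicate 9, against 10.22 to 10.38.

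The PH minus sham difference was called as changed from 4 to 48 h for 4 of the 10 genes, by limma for the difference of differences. Among all genes tested 33.6% were called, so that the share of the 10 genes was close to that of all genes. The change was -0.6988 for Slc30a10 (SE 0.2344, adjusted p = 0.01365) and -1.834 for Hamp (SE 0.6625, adjusted p = 0.02245). It was -2.554 for Hamp2 (SE 0.7016, adjusted p = 0.002531) and 1.017 for Tfrc (SE 0.3894, adjusted p = 0.0319). The calls of Slc30a10 and Hamp2 were kept in every setting. Those of Hamp and Tfrc were lost when certain single livers were left out. With libraries scaled to the same median, the change of Tfrc was 0.51 (adjusted p = 0.36).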

How the results depend on the processing

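Over 23 comparisons and 10 genes, 100 of 230 differences were called. The share of all genes called ran from 0.065% (X4W against C4W) to 45.6% (X4 against C4) per comparison. As the 10 genes were chosen with earlier results known, the count is a description and not a test. Of the 100 called differences, 71 kept their call in every setting tried and 29 lost it in at least 1, and 44 of the 130 others gained one. Of the 4700 recomputed differences 4502 kept their call or lack of one, 99 lost it, 98 gained it and 1 was reversed: Mt1 in C4 against C0, 0.46, was -1.57 (adjusted p = 0.032 by limma) with replicates 4 to 6. The median of each gene in each group lay within 1 SD of its mean in 190 of 190 cases. This holds for any set of values, so it is not a test of the levels.

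The number of the 10 genes called moved as follows. In X4 against S4 it went from 1 to 2 with the stricter filter, with only the groups compared and with replicates 4 to 6, as it did in X10 against S10 with the last 2. In X20 against S20 it went from 2 to 1 with median scaling, the replicate block and replicates 1 to 3, and to 5 with replicates 4 to 6. In X48 against S48 it went from 2 to 5 with median scaling and to 1 with only the groups compared. In X1 against S1 it went from 0 to 1 with replicates 1 to 3. Against C0, S1 went from 4 to 2 with replicates 4 to 6, X1 from 5 to 3 with replicates 1 to 3 or 4 to 6, and X1W from 2 to 5 with replicates 1 to 3 or C0 7 to 9 alone. C4 went from 2 to 4 with the block, to 0 with only the groups compared or C0 7 to 9 alone, and to 6 and 7 with replicates 1 to 3 and 4 to 6. Leaving out 1 replicate gave 0 to 2 in X4 against S4, 0 to 1 in X10 against S10, 1 to 2 in X20 against S20 and in X48 against S48, 1 to 3 in C4 against C0 and 2 to 4 for the change from 4 to 48 h. The cause was not tested.

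Replicate numbers do not mark shared animals, and the correlations of same-numbered livers ran from -0.186 to 0.296. The replicate block gave 102 calls among the 10 genes against 100 (7 lost, 9 gained), and moved the count over all genes in S48 (885 against 1367) and C4 (2767 against 1215) against C0.

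Counts over all genes moved by over 1.5 times in these cases, where the value of the reported fit comes first. In X1 against S1, 100 became 16 with only the groups compared, 732 with replicates 1 to 3, 372 with replicates 4 to 6, 58 without S1 replicate 1 and 65 without X1 replicate 2. In X4 against S4, 1330 became 808 with pseudocount 1 and 886 with only the groups compared. In X10 against S10, 1081 became 678 with pseudocount 1 and 1777 with replicates 1 to 3. In X20 against S20, 1094 became 640, 675 and 1691 in these 3 settings, and 625 without S20 replicate 1. In X48 against S48, 4187 became 2762 with pseudocount 1, and for the change from 4 to 48 h 5178 became 3450 with median scaling. With pseudocount 1 the counts against C0 went from 1197 to 525 in S1, 4481 to 2846 in S10, 1869 to 1075 in S20, 1367 to 819 in S48, 2078 to 1102 in X1, 3710 to 2326 in X20, 2604 to 1491 in X1W and 1215 to 631 in C4. With only the groups compared they were 772 in S1, 1202 in S20, 786 in S48 and 237 in C4. With C0 7 to 9 alone they were 3468 in S1, 4123 in S20, 3732 in S48, 4383 in X1, 5772 in X20, 4690 in X1W and 174 in C4. With replicates 1 to 3 they were 2171 in S1 and 2770 in C4, and with replicates 4 to 6 they were 442 in S1, 1331 in X1 and 2950 in C4. They were 1679 in X1W without its replicate 3 and 481 in C4 without its replicate 2. In X4W against C4W 10 became 4 with pseudocount 1, 26 without a filter, 1 with the stricter filter, 0 with only the groups compared and 5 without either X4W liver. Median scaling moved the share of higher calls by over 10 percentage points in 18 of the 23 comparisons.

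Groups of 2 and 3 livers limit C4, C4W, X4, X4W and the sham groups from 10 h, and lone livers left by an omission were assumed to vary like other groups. Unoperated livers cover 2 hours of the day. Transcript levels do not show protein or metal content, and depth in reads was read from low values and is approximate.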
